A study of Mus musculus with 29 samples.

Results

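The genes described here are Cxcr2, the receptor through which neutrophils follow ELR-positive CXC chemokines, and 4 of its mouse ligands, Cxcl1, Cxcl2, Cxcl3 and Cxcl5. These 5 rows were taken by symbol from a count table of 24421 genes, and all 5 passed the filter on low counts in each of the 9 comparisons made. The study implanted YTN16 mouse gastric cancer cells into the peritoneal cavity of female C57BL/6J mice, 5 to 6 weeks old at the start, and sequenced bulk RNA of the peritoneal site from 29 mice, 1 library each. At day 21 (3wk) there were 5 untreated mice, which were given PBS, and 5 dual ICI mice, which were given anti-PD1 at 10 mg/kg together with anti-CTLA4 at 5 mg/kg on days 5, 8 and 12. At day 35 (5wk), with further injections on days 21 and 28, there were 5 untreated, 5 anti-PD1, 4 anti-CTLA4 and 5 dual ICI mice. Of the last, mice 1 and 5 are called dual ICI-uncured and mice 2, 3 and 4 dual ICI-cured, by taking the library numbers as the mouse numbers in the study's text.

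All 29 mice carried the implanted cells at the start, and YTN16 is 1 cell line. The labels call the sample tumor tissue, whereas the methods describe stripped peritoneum with or without nodules, so the share of tumor in a library was not fixed by the dissection. Library totals lay between 25989217 and 31219650 counts. A list of 20 gastric epithelial genes, keratin genes among them, served as tumor markers. Summed, they lay between 948 and 4774 CPM (counts divided by the TMM-adjusted size of each library) in 25 mice. They lay between 28.2 and 121 CPM in the cured mice, with Gkn1, Gkn2, Tff1 and Muc5ac at 0 in all 3, and at 79.8 CPM in anti-PD1 mouse 5. Whether tumor or host tissue gave the rest of the sum in these mice was not tested. Summed over 26 genes, skeletal muscle markers were the reverse, at 342919 to 380098 CPM in the cured mice and 354907 CPM in anti-PD1 mouse 5, against 40241 to 298155 CPM in the other 25 mice. The study's text describes a cured animal among the anti-PD1 mice without giving its number, so anti-PD1 mouse 5 stays in its group and results that rest on it are given with and without it. In bulk RNA, fewer cells of a type and less RNA per cell cannot be told apart.

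CXCR2 is a G protein-coupled receptor found mainly on neutrophils, where it directs them from the marrow and blood into inflamed tissue. Its ligands carry a Glu-Leu-Arg motif before their first cysteines and are made by epithelium, fibroblasts, endothelium and myeloid cells after signals such as IL-1, TNF and IL-17, in large part through the transcription factor NF-kB. In tumors, the same ligands can come from the cancer cells and draw in neutrophils.

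The 4 ligand genes lay side by side on mouse chromosome 5 (GRCm38, GENCODE vM21), all on the plus strand and within 146.579 kb. In order they were Cxcl5 at chr5:90759360-90761624, Cxcl3 at chr5:90786103-90789600, Cxcl1 at chr5:90891241-90893115 and Cxcl2 at chr5:90903871-90905938. Ppbp, Pf4 and Cxcl15 stood among them, and the receptor gene Cxcr2 lay apart at chr1:74153989-74161246. In this annotation 0 genes overlapped any of the 5. Cxcl1, Cxcl2 and Cxcl3 are near-identical paralogs in stretches, so reads could have been shared among them in the counting.

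Promoter windows of 300 bases, from 250 bases before to 50 after the start in RefSeq (GRCm38.p6), were at hand for Cxcl3, Cxcl1, Cxcl2 and Cxcr2. The 130 bases before the start are shown for the 3 ligands because they hold the same 11 bases, printed in capitals, which contain an NF-kB type motif on both strands. They stand at chr5:90785971-90786100, chr5:90891115-90891244 and chr5:90903769-90903898, on the plus strand, 5′ to 3′.

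Cxcl3: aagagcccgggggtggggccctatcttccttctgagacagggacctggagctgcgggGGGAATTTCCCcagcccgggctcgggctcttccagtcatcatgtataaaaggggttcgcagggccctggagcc
Cxcl1: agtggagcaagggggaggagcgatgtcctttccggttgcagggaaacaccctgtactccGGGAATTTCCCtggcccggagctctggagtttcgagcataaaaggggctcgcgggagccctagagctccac
Cxcl2: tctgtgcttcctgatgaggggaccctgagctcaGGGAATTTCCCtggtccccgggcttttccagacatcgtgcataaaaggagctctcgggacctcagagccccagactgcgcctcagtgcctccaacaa

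The 10-base string GGGAATTTCC began at -73 in Cxcl3, -71 in Cxcl1 and -97 in Cxcl2, counted back from the RefSeq start. The bases shown for Cxcl2 run to chr5:90903898, past its GENCODE start at chr5:90903871, so distances in Cxcl2 would be shorter from that start. Those shown for Cxcl1 pass its GENCODE start by a few bases. On either strand it was present in 29 of 32851 mouse promoter windows of this length, or 0.0883%. The wider NF-kB consensus, whose matches overlap it, was present in 4.51% of windows. It was absent from the windows of Cxcr2, Ppbp, Pf4 and Cxcl15. A second shared string, ATAAAAG, was searched for after the sequences had been read. It began at -29 in Cxcl3, -34 in Cxcl1 and -57 in Cxcl2, and 5.42% of windows held it. The STAT motif TTCNNNGAA (8.30% of windows) and the AP-1 motif TGANTCA (7.81%) matched in 0 of the 4 windows. These matches are descriptions of sequence and do not show binding.

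Cxcl5, the ligand known in mice from epithelial cells, was the main ligand transcript wherever tumor markers were present. In untreated mice at 3wk its level was 27.5, 35.2, 40.2, 44.4 and 86.3 CPM, a mean of 46.7 ± 23.0 CPM (SD, n = 5). In untreated mice at 5wk it was 33.7, 68.3, 88.2, 117 and 146 CPM, a mean of 90.6 ± 43.3 CPM (SD, n = 5). The ranges of the untreated mice overlapped between the time points, with mouse 4 at 3wk and mouse 2 at 5wk furthest from their groups.

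Dual ICI mice at 3wk had 14.0, 15.6, 42.5, 45.5 and 134 CPM of Cxcl5, a mean of 50.4 ± 49.2 CPM (SD, n = 5). Mouse 4 alone exceeded the highest untreated mouse of 3wk, and the other 4 lay within or below the untreated range. At 5wk the anti-CTLA4 mice had 64.3, 82.9, 124 and 134 CPM (101 ± 33.3, SD, n = 4) and the dual ICI-uncured mice 108 and 122 CPM (115 ± 10.0, SD, n = 2).

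The anti-PD1 mice had 96.6, 106, 111 and 132 CPM of Cxcl5 in mice 1 to 4 and 0.780 CPM, from 15 counts, in mouse 5. Their mean was 89.2 ± 51.1 CPM (SD, n = 5), and without mouse 5 it was 111 ± 15.1 CPM (SD, n = 4). In the dual ICI-cured mice Cxcl5 was at 0.0492, 0.195 and 0.773 CPM, from 1, 4 and 15 counts, a mean of 0.339 ± 0.383 CPM (SD, n = 3). Anti-PD1 mouse 5 and the cured mice were thus far below every other mouse, the lowest of which had 14.0 CPM.

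Cxcl3, a ligand of the same family that also attracts neutrophils, followed at a much lower level. Its mean was 2.52 ± 2.13 CPM (SD, n = 5) in untreated and 2.68 ± 2.58 CPM (SD, n = 5) in dual ICI mice at 3wk. At 5wk it was 4.22 ± 1.70 CPM (SD, n = 5) in untreated, 5.69 ± 3.97 CPM (SD, n = 5) in anti-PD1 and 5.23 ± 1.32 CPM (SD, n = 4) in anti-CTLA4 mice. Without mouse 5 the anti-PD1 mean was 7.12 ± 2.75 CPM (SD, n = 4). The uncured mice had 6.15 and 8.85 CPM, and both lay above the highest untreated mouse at 5wk, which had 6.00 CPM. So did anti-PD1 mice 1, 3 and 4 (7.22, 6.79 and 10.6 CPM) and anti-CTLA4 mouse 4 (6.76 CPM). Cxcl3 had 0 counts in all 3 cured mice and in anti-PD1 mouse 5, which allows up to 3 counts per library, or 0.150 CPM in the cured mice, by counting error alone.

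Cxcl1 (also KC), an early neutrophil attractant of epithelium, stroma and macrophages, was near 1 to 2 CPM in most groups. Ordered by mean CPM, its level ran from anti-CTLA4 (1.88 ± 0.733, SD, n = 4) through uncured, untreated and anti-PD1 mice at 5wk to untreated (0.950 ± 0.776, SD, n = 5) and dual ICI mice (0.879 ± 0.654, SD, n = 5) at 3wk. Each neighbouring pair in that order overlapped. The cured mice had 0.293, 0.361 and 0.541 CPM, from 6, 7 and 11 counts, which overlapped both groups at 3wk.

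Cxcl2 (also MIP-2), made largely by myeloid cells, was the lowest of the 5 in most groups. Untreated mice at 3wk had 0.232, 0.518, 0.544, 0.559 and 1.43 CPM, and dual ICI mice at 3wk had 0.454, 0.827, 0.931, 1.56 and 1.69 CPM. Untreated mice at 5wk had 0.893, 0.954, 1.06, 1.44 and 1.80 CPM, and the uncured mice had 2.18 and 2.40 CPM. The uncured mice were the highest 2 of the 29 for Cxcl2, above anti-CTLA4 mouse 2 with 2.02 CPM. The cured mice had 0.0488, 0.103 and 0.295 CPM, from 1, 2 and 6 counts.

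Cxcr2 itself was at 3.32 ± 1.57 CPM (SD, n = 5) in untreated and 3.26 ± 2.59 CPM (SD, n = 5) in dual ICI mice at 3wk. Untreated mice at 5wk had 2.54, 2.88, 4.01, 4.17 and 7.86 CPM, anti-CTLA4 mice 4.12, 5.15, 6.15 and 9.30 CPM and uncured mice 5.47 and 7.57 CPM. The anti-PD1 mice had 3.18, 5.71, 6.19 and 6.30 CPM in mice 1 to 4 and 0.624 CPM, from 12 counts, in mouse 5. The cured mice had 0.0492, 0.206 and 0.488 CPM, from 1, 4 and 10 counts, all below the lowest of the 26 other mice. For Cxcl5, Cxcl3 and Cxcr2, the cured group was the only one whose range lay apart from that of its neighbour in the order of means.

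**Figure D1:**
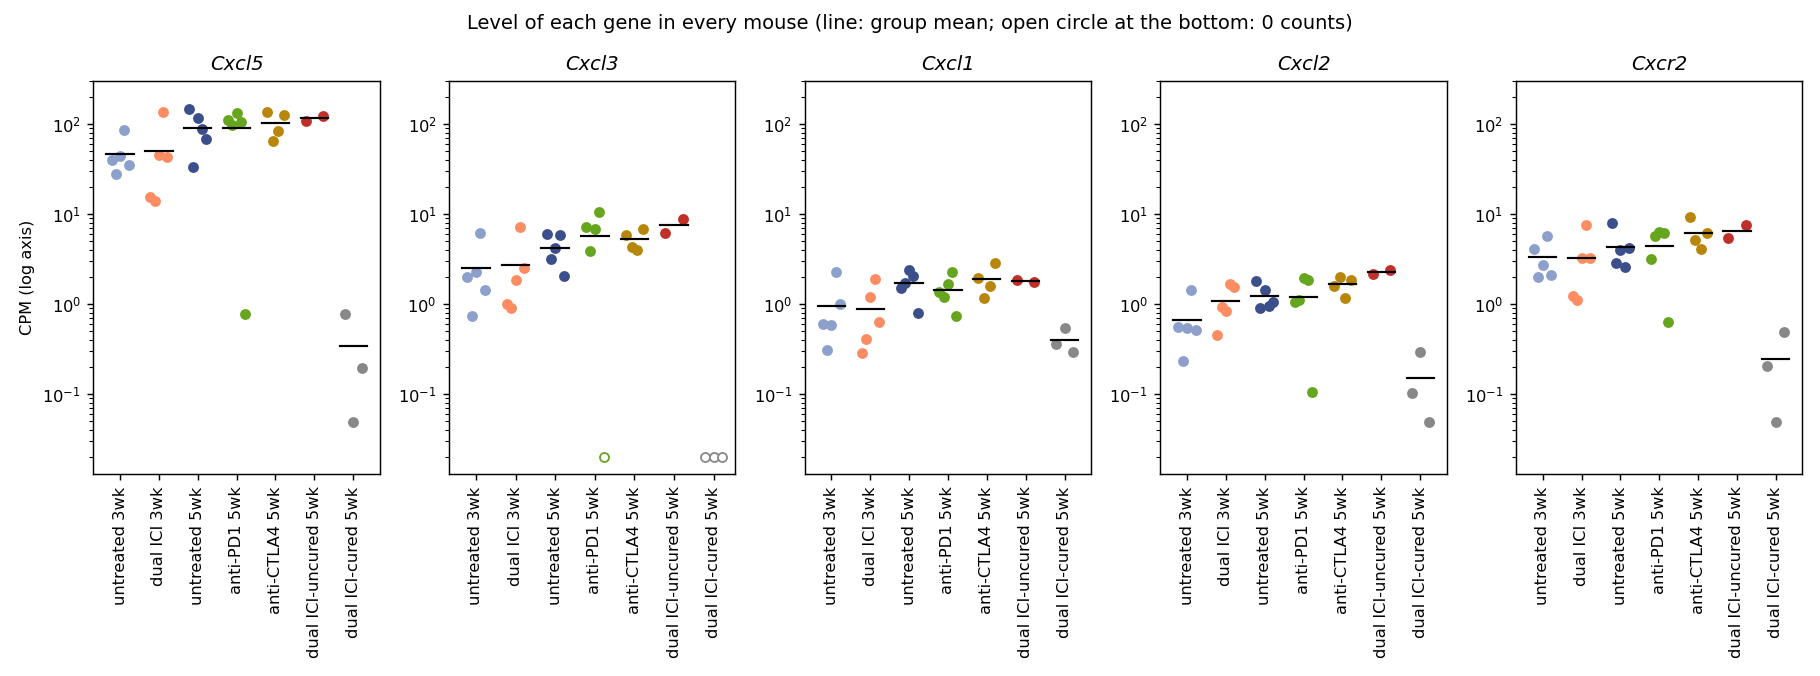
Level of each gene in CPM (log axis) in every mouse of the 7 groups, with a line at the group mean and open circles at the bottom for 0 counts. The cured mice and anti-PD1 mouse 5 sit far below the rest for Cxcl5 (0.0492 to 0.780 CPM against at least 14.0 CPM), while the other groups overlap for that gene. For Cxcl2 the uncured mice (2.18 and 2.40 CPM) lie above every other mouse.

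Levels of different genes were compared per length, as CPM per kilobase of the main transcript. On this scale Cxcl5 made up 79.0% to 93.3% (median 88.3%) of the summed level of the 4 ligands in the 25 mice other than the cured mice and anti-PD1 mouse 5. Cxcl3 made up 3.86% to 12.8% (median 7.33%), Cxcl1 1.56% to 6.62% (median 2.48%) and Cxcl2 1.12% to 7.62% (median 1.85%). The mean share of Cxcl5 was 89.1% ± 2.99 (SD, n = 5) in untreated mice at 3wk, 87.8% ± 5.32 (SD, n = 5) in untreated mice at 5wk and 86.6% ± 0.983 (SD, n = 2) in uncured mice.

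In the cured mice the make-up was another. Cxcl1 made up 56.5% ± 14.9 (SD, n = 3) and Cxcl5 26.9% ± 23.7 (SD, n = 3) of the ligand level per length, on only 11 to 24 ligand counts a mouse. In anti-PD1 mouse 5, with 31 ligand counts, Cxcl1 made up 56.5% and Cxcl5 36.6%. The shares in these 4 mice rest on few counts and are given as a description.

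**Figure D2:**
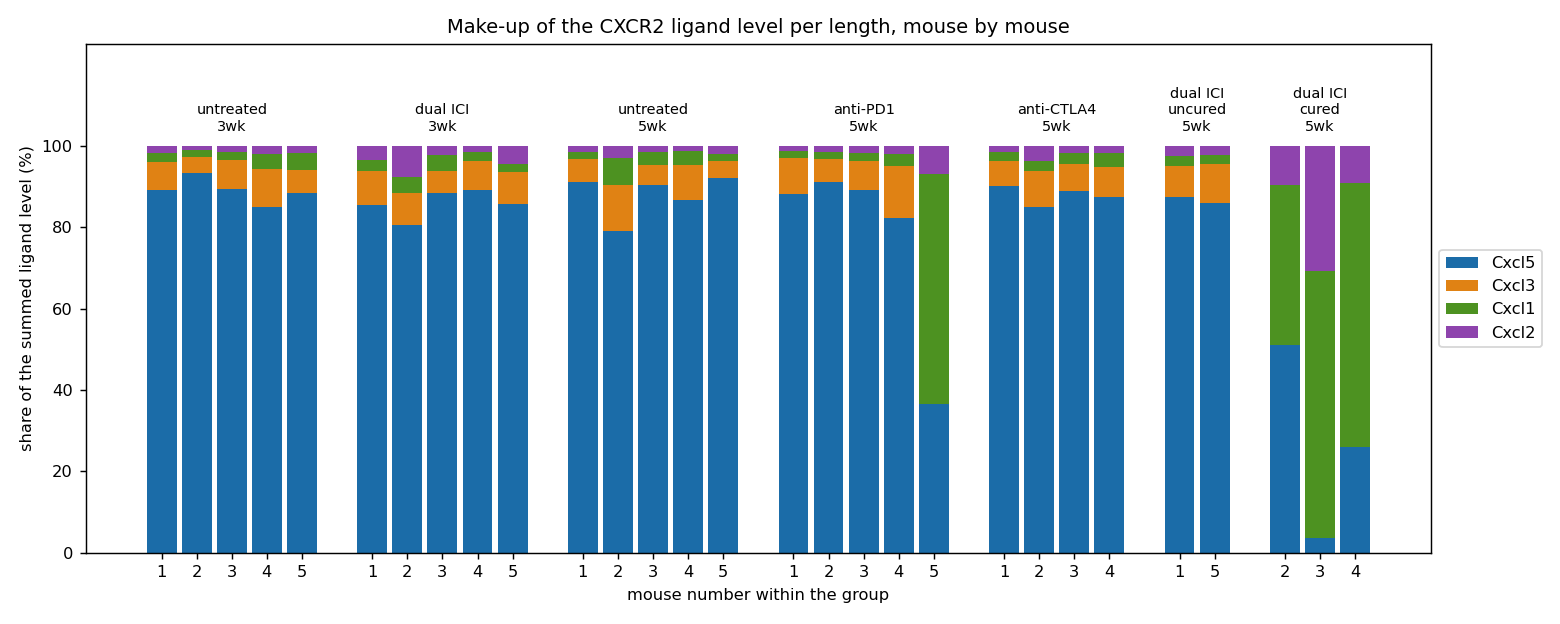
Share (%) of each of the 4 ligands in their summed level per length, with 1 bar per mouse in each of the 7 groups. Cxcl5 fills at least 79.0% of every bar except in the cured mice and in anti-PD1 mouse 5, where Cxcl1 is the largest share in 3 of 4 bars.

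To ask whether dual ICI changed the ligands early, dual ICI and untreated mice were compared at 3wk with edgeR's quasi-likelihood test. Among all genes 0.574% passed an adjusted p of 0.05, and 0 of the 5 members did, with 0 of 5 at an unadjusted p under 0.05. Cxcl2 had the largest log2 fold change, 0.74 ± 0.47 (SE) with a 95% interval of -0.28 to 1.76 (edgeR adjusted p = 0.641). Cxcl5 was at 0.13 ± 0.56 (SE, interval -1.10 to 1.37) and Cxcr2 at -0.0016 ± 0.51 (SE, interval -1.11 to 1.11). The last 2 intervals pass 1 on the log2 scale in both directions, so changes of that size were not detectable with 5 mice a group.

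The tumor marker level moved with these values among the mice of 3wk. Untreated mouse 4 and dual ICI mouse 4 had the highest gastric epithelium sums of their groups, 2778 and 3114 CPM, and also the highest Cxcl5. With the gastric epithelium score as a covariate, an alternative added after the data had been seen, edgeR called Cxcl2 (log2 fold change 1.31, adjusted p = 0.0150), Cxcl3 (0.87, adjusted p = 0.0135) and Cxcl5 (0.55, adjusted p = 0.0455) higher in dual ICI mice. The same fit called 2980 of 15503 genes against 89 without the covariate. The part that tumor share plays in the 3wk values was not tested beyond this fit.

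Between 3wk and 5wk in untreated mice the fitted log2 fold changes of all 5 members were above 0, but 0 of 5 passed the test, against 10.8% of all genes. Cxcl5 was at 0.95 ± 0.37 (SE; edgeR adjusted p = 0.115), Cxcl2 at 0.89 ± 0.41 (SE; adjusted p = 0.165), Cxcl1 at 0.82 ± 0.48 (SE), Cxcl3 at 0.74 ± 0.49 (SE) and Cxcr2 at 0.37 ± 0.36 (SE). Cxcl5 and Cxcl2 had an unadjusted p under 0.05. Without untreated mouse 4 of 3wk, 3 members were called (Cxcl5, Cxcl1 and Cxcl2), and without untreated mouse 2 of 5wk, 1 was (Cxcl5). The median log2 fold change of the gastric epithelium list between the same mice was 0.81, beside 0.02 over all genes tested. With the gastric epithelium score as a covariate, also added after the data had been seen, 0 of 5 members passed. In that fit Cxcl5 was at 0.16, Cxcl2 at 0.44, Cxcl1 at 0.51, Cxcl3 at 0.32 and Cxcr2 at -0.018. The library names carry another series number at each time point, so day and that series cannot be told apart.

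Neither monotherapy moved a member past the threshold at 5wk. Of all genes 0.0% were called in the anti-PD1 comparison (205 of 15640 at an unadjusted p under 0.05) and 0.0% in the anti-CTLA4 comparison (128 of 15781). Under anti-PD1 the log2 fold changes of the members ran from -0.22 (Cxcl1) to 0.44 (Cxcl3), and under anti-CTLA4 from 0.14 (Cxcl1) to 0.51 (Cxcr2). Intervals were widest for Cxcl5 under anti-PD1, at -1.82 to 1.79, where mouse 5 stood apart. Without that mouse its log2 fold change was 0.29.

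Dual ICI-uncured mice were compared with untreated mice at 5wk to see what the members did where tumor persisted under treatment. All 5 log2 fold changes were above 0 and 0 of 5 passed the test, against 0.0% of all 16156 genes by edgeR (787 at an unadjusted p under 0.05, and 18 genes by DESeq2). Cxcl2 was at 0.88 ± 0.36 (SE, 95% interval 0.08 to 1.69, edgeR adjusted p = 0.734), a ratio of means of 1.86. Cxcl3 was at 0.83 ± 0.40 (SE, interval -0.09 to 1.74), Cxcr2 at 0.60 ± 0.42 (SE), Cxcl5 at 0.34 ± 0.45 (SE) and Cxcl1 at 0.08 ± 0.42 (SE). With the gastric epithelium score as a covariate they were at 0.81, 0.57, 0.34 and 0.07, Cxcl2 was at 0.86, and 0 of 5 passed. For Cxcl2 and Cxcl3, 2 of the 5 members, both uncured mice lay above all 5 untreated mice, which was also so for 9.46% of all genes. Whether the dual ICI effect differed between 3wk and the uncured mice at 5wk was tested as an interaction, and 0 of 5 members and 0.0% of all genes were called (1050 of 16542 genes at an unadjusted p under 0.05, and 1 by DESeq2). Since these comparisons at 5wk share the untreated mice, their values are not independent of each other.

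Against untreated mice at 5wk, all 5 members fell in the dual ICI-cured mice, where 44.7% of all genes tested were called and 26.7% were called lower. Cxcl5 fell by 8.05 ± 0.76 (SE) on the log2 scale (edgeR adjusted p = 0.000147), and its mean level was 267-fold higher in untreated mice. Cxcl3 had no count in the cured mice and was at least 28.2-fold lower, computed against the floor of 3 counts per library (adjusted p = 0.000276). Cxcr2 fell by 4.08 ± 0.63 (SE; adjusted p = 0.00103), Cxcl2 by 2.99 ± 0.55 (SE; adjusted p = 0.00257) and Cxcl1 by 2.06 ± 0.45 (SE; adjusted p = 0.00588). For each of the 5 members the ranges of cured and untreated mice lay apart, with cured lower, as for 26.3% of all genes. The 5 calls held without each mouse in turn and with the skeletal muscle genes left out, but sizes resting on few counts moved. The ratio of means of Cxcl5 was 741 without cured mouse 2 and 187 without cured mouse 3, and its log2 fold change was -9.45 without mouse 2. Without cured mouse 4 that of Cxcr2 was -5.03, and without cured mouse 3 that of Cxcl2 was -3.95.

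Against the same cured mice, all 5 members were higher in the uncured mice, where 70.0% of all genes were called and 36.9% were called higher. Cxcl5 was 8.40 ± 0.34 (SE) higher on the log2 scale, Cxcr2 4.68 ± 0.50 (SE), Cxcl2 3.88 ± 0.52 (SE) and Cxcl1 2.15 ± 0.38 (SE), with edgeR adjusted p from 5.03e-07 to 0.00102. Cxcl3 was at least 50.2-fold higher. The cured mice enter both comparisons, and the gastric epithelium sum moved with the members in each, at 28.2 to 121 CPM in cured and 3901 to 4774 CPM in uncured mice.

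With all 5 dual ICI mice of 5wk taken as 1 group against untreated mice, 0 of 5 members and 0.0% of all genes were called (1071 of 15588 genes at an unadjusted p under 0.05, and 55 by DESeq2). In this group Cxcl5 ran from 0.0492 to 122 CPM, and its log2 fold change was -0.98 ± 1.48 (SE). A fit of all 29 libraries called 3 members lower (Cxcl5, Cxcl3 and Cxcr2) and 2693 genes. It estimates the spread over all groups and gives uncured and cured mice separate means. It then averages their log2 levels by number of mice, so its log2 fold changes are not those of 1 pooled group.

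**Figure D3:**
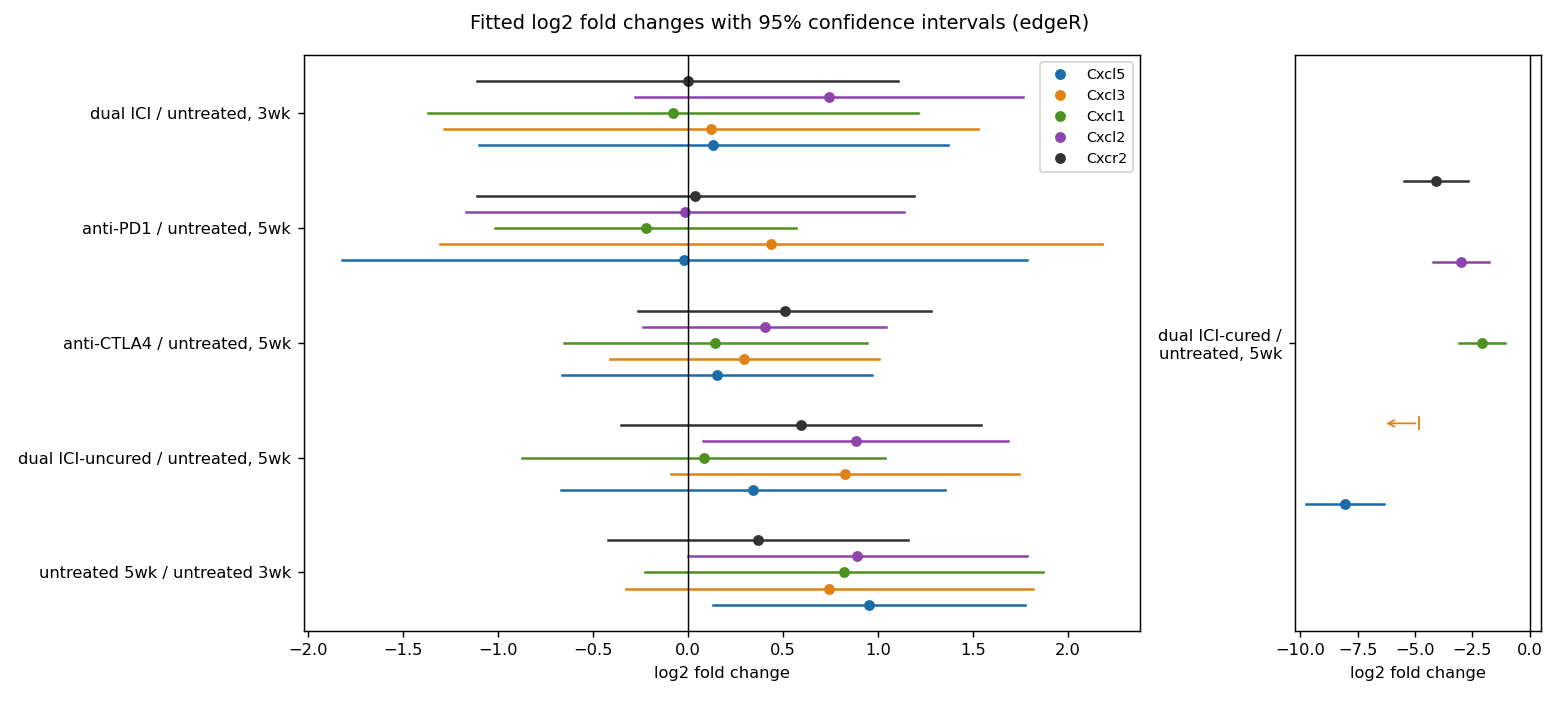
Fitted log2 fold changes of the 5 members with 95% confidence intervals from edgeR, in 5 comparisons (left) and between cured and untreated mice on a wider scale (right), where the arrow marks the bound for Cxcl3. On the left the intervals that do not cross 0 are those of Cxcl5 and Cxcl2 between time points and of Cxcl2 in uncured mice (0.08 to 1.69), none with an adjusted p under 0.05, and on the right every member lies below 0.

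Not every chemokine gene of the chromosome 5 cluster fell in cured mice. Pf4, a platelet and macrophage chemokine that stands between Cxcl5 and Cxcl3, was at a log2 fold change of 0.65 ± 0.26 (SE; edgeR adjusted p = 0.0679) between cured and untreated mice. Rassf6, a gene outside the ligand span on the Cxcl5 side, fell by 5.27 ± 0.59 (SE; adjusted p = 0.000215), and Mthfd2l on the other side was at -0.37 ± 0.18 (SE; adjusted p = 0.121). Of 5 related chemokine and receptor genes, 3 could be tested in the same comparison (Pf4, Cxcl15 and Ackr1) and 0 were called. Their median was -0.10 beside -0.05 over all genes. Ppbp and Cxcr1 did not pass the filter on low counts, so this result does not cover them.

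Of 9 cytokine genes listed as inducers of these ligands, 4 could be tested in cured against untreated mice and all 4 fell, beside 26.7% of all genes, with a median log2 fold change of -4.05 (-0.05 over all genes). The log2 fold changes were -4.24 ± 0.48 (SE) for Il1b, -4.30 ± 0.76 (SE) for Il1a, -3.87 ± 0.33 (SE) for Tnf and -1.21 ± 0.40 (SE) for Osm, all cytokines of inflammation. Summed over the 9 genes, the level was 1.24 to 2.19 CPM in cured and 14.1 to 21.5 CPM in untreated mice at 5wk. The sizes of these falls thus rest on few counts in the cured mice. Il17a was at 0 in the cured mice and in every other group except anti-CTLA4. In the uncured mice 0 of 5 tested inducers passed the test, with Il1b at 0.99 ± 0.33 (SE; edgeR adjusted p = 0.734), and 0 of 4 did so under dual ICI at 3wk. Between untreated mice at 3wk and 5wk, 1 of 4 rose, beside 6.24% of all genes, Il1a by 1.32 ± 0.36 (SE).

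NF-kB target genes fell in 12 of 12 tested in cured mice (median -1.89), beside 26.7% of all genes, among them the antibacterial protein gene Lcn2 (-4.88 ± 0.43, SE), the adhesion gene Icam1 (-2.42 ± 0.28, SE), the NF-kB subunit gene Nfkb2 (-1.23 ± 0.15, SE) and Nfkbiz (-2.48 ± 0.32, SE). In untreated mice 4 of 12 rose between 3wk and 5wk, beside 6.24% of all genes, namely Lcn2, Relb, Ccl20 and Icam1, where Lcn2 rose by 1.76 ± 0.29 (SE; edgeR adjusted p = 0.00633). At 3wk under dual ICI and in the uncured mice, 0 of 12 passed. The study names 6 other chemokines from these samples, which are therefore no independent evidence, and Ccl20 is also in the NF-kB list. In cured mice 6 of 6 fell (median -3.13), beside 26.7% of all genes. Under dual ICI at 3wk and in uncured mice 0 of 6 passed. From a heatmap of both time points, the study reports these and Cxcl1, Cxcl2, Cxcl3 and Cxcl5 as raised after dual ICI. In the tests made here, 0 of 5 members passed at 3wk or in uncured mice.

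Of 11 genes that act below CXCR2, 4 fell in cured mice (median -0.27), beside 26.7% of all genes, Fgr, Vav1, Arrb2 and Gnai2, with Fgr, a myeloid Src family kinase, at -1.18 ± 0.26 (SE). In uncured mice the 11 log2 fold changes were all above 0 with a median of 0.62, beside -0.01 over all genes, and 0 of 11 passed. At 3wk under dual ICI they were likewise all above 0 with a median of 0.38 and 0 of 11 passed. Of 9 other neutrophil chemoattractant receptors and retention genes, 5 fell and 2 rose in cured mice, beside 26.7% and 18.0% of all genes. Among the 5 were Csf3r (-2.45 ± 0.39, SE), the receptor for G-CSF, and the formyl peptide receptor genes Fpr2 (-2.71 ± 0.68, SE) and Fpr1 (-2.14 ± 0.55, SE). Csf3r is also in the neutrophil list. Summed over the 9 genes, the level was 213 to 239 CPM in cured and 153 to 204 CPM in untreated mice at 5wk.

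Neutrophil markers moved with the members. Summed over 15 neutrophil genes of the 16 listed (Ly6g was not analysed here), the level was 38.9 to 47.1 CPM in cured mice, with Ngp and Mpo at 0 in all 3. It was 32.9 CPM in anti-PD1 mouse 5 and 54.5 to 192 CPM in the other 25 mice. In cured against untreated mice 9 of 11 tested neutrophil genes fell (median -2.74), beside 26.7% of all genes, among them the calprotectin genes S100a8 (-5.22 ± 0.71, SE) and S100a9 (-4.42 ± 0.58, SE). In the uncured mice 0 of 11 passed the test, and between untreated mice at 3wk and 5wk 2 of 10 rose, beside 6.24% of all genes, S100a8 by 2.08 ± 0.40 (SE) and S100a9 by 1.53 ± 0.40 (SE).

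Set against the marker sums, Cxcl5, Cxcl3 and Cxcr2 were lower and Cxcl1 higher in the cured mice, and Cxcl2 overlapped the other mice. Cxcl5 was at 13.5 to 43.2 CPM per 1000 CPM of the gastric epithelium list in the 25 mice with tumor markers, at 9.78 in anti-PD1 mouse 5 and at 0.929 to 6.92 in cured mice. Per the same list, Cxcl1 was at 0.249 to 1.34 in the 25 mice, 9.13 in anti-PD1 mouse 5 and 2.99 to 10.4 in cured mice. Cxcl2 was at 0.223 to 0.899 in the 25 mice, 1.30 in anti-PD1 mouse 5 and 0.854 to 5.57 in cured mice. Cxcl3 was at 0 in the cured mice and in anti-PD1 mouse 5. Cxcr2 was at 19.0 to 52.9 CPM per 1000 CPM of the neutrophil list in the 26 mice other than cured and at 1.06 to 10.4 in the cured mice. The neutrophil sum adds CPM over genes, so the genes with most CPM weigh most in it. In cured against untreated mice S100a8 and S100a9 fell further on the log2 scale than Cxcr2 (-4.08). The median neutrophil gene fell by less (-2.74), so the ratio depends on the genes summed. The part of tumor or neutrophil content in the members' levels was not tested beyond these ratios, which rest on few counts in the cured mice. Whether the gastric epithelium sum there, by which the ligands were divided, came from tumor or host tissue was not tested.

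**Figure D4:**
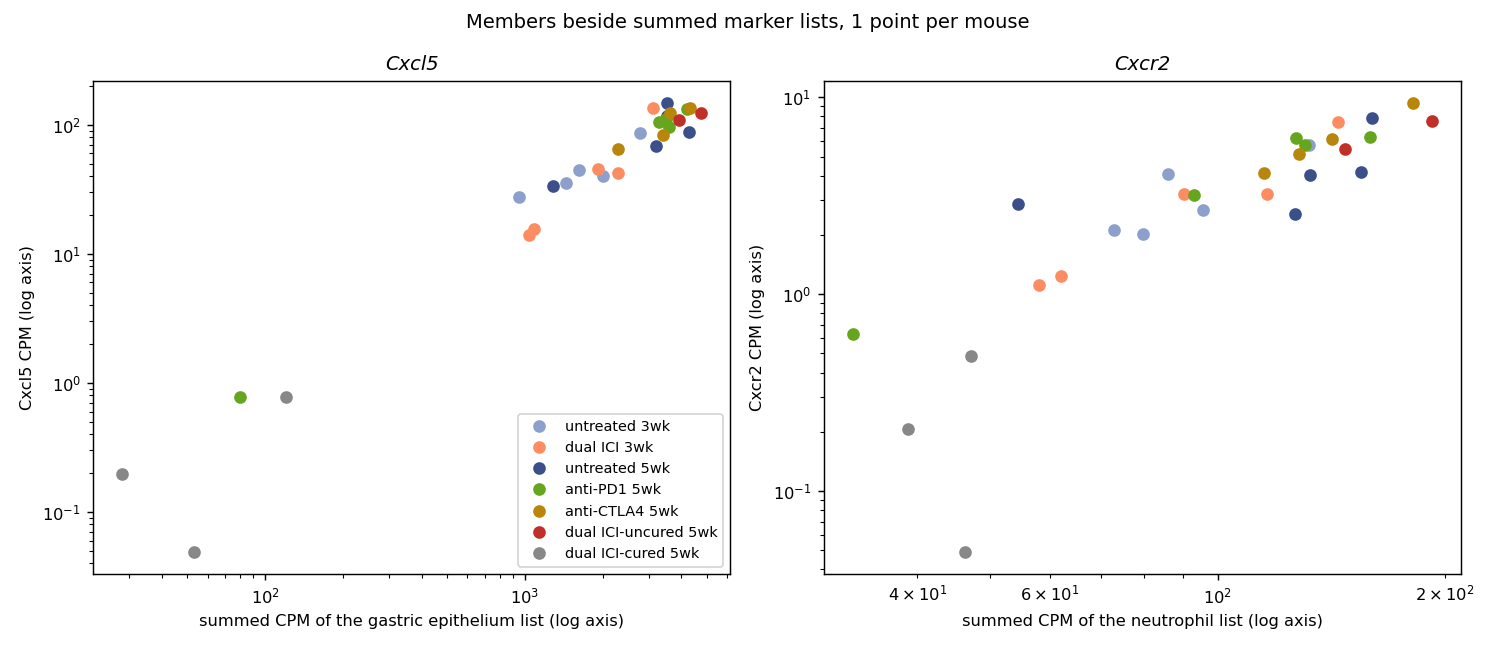
Cxcl5 in CPM against the summed CPM of the gastric epithelium list (left) and Cxcr2 against that of the neutrophil list (right), with 1 point per mouse, colours for the 7 groups and log axes. The cured mice and anti-PD1 mouse 5 lie apart at the lower left (gastric epithelium at most 121 CPM against at least 948 CPM in the others).

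Pooled over the 26 mice other than cured, the levels of the members varied together, but within 5wk few of these relations passed the test without anti-PD1 mouse 5. The 6 ligand pairs had Pearson's r from 0.63 to 0.96 and Spearman's rho from 0.65 to 0.85 on log2 CPM (permutation p from 1e-05, the smallest that 100000 permutations can give, to 0.00046, and at most 0.000541 after Benjamini-Hochberg adjustment over the 20 relations computed). The closest pair was Cxcl5 with Cxcl3 (r = 0.96, rho = 0.85). Cxcr2 with the 4 ligands had r from 0.68 to 0.89 and rho from 0.63 to 0.86 (adjusted permutation p at most 0.000926). Leaving out the 2 mice farthest from the median gave r of 0.57 to 0.89 for the ligand pairs. These permutations exchange mice across groups and time points, so differences between groups and days enter the pooled p-values.

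Tests within each time point were added after the data had been seen. By Spearman's rho, 18 of the 20 relations passed an adjusted permutation p of 0.05 within 3wk (10 mice), 5 within 5wk (16 mice) and 0 within 5wk without anti-PD1 mouse 5 (15 mice). By Pearson's r the counts were 17, 18 and 2. The ligand pairs had r of 0.58 to 0.93 and rho of 0.61 to 0.88 within 3wk, and r of 0.30 to 0.64 and rho of 0.19 to 0.62 within 5wk without that mouse. Cxcr2 with the ligands had r of 0.58 to 0.97 and rho of 0.66 to 0.90 within 3wk, and r of 0.12 to 0.76 and rho of 0.079 to 0.71 within 5wk without it. With the mean log2 CPM of the neutrophil list, the members had r of 0.85 to 0.93 and rho of 0.79 to 0.92 within 3wk, and r of -0.16 to 0.62 and rho of -0.043 to 0.67 within 5wk without it. With that of the gastric epithelium list, relations also added after the data had been seen, r was 0.51 to 0.93 and rho 0.52 to 0.93 within 3wk, and r was 0.22 to 0.78 and rho -0.075 to 0.40 within 5wk without it. For Cxcr2 alone within 3wk, r was 0.93 with the gastric epithelium list and 0.87 with the neutrophil list. Within 5wk without anti-PD1 mouse 5, r was 0.22 and 0.62 in the same order. All the relations in this paragraph share library, depth and the mix of tissues in each mouse.

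Among 14363 genes with a mean of at least 1 CPM in the same 26 mice, those whose levels ordered the mice most like Cxcl5 were Plek2, Ttc26 and Sf3b3 (rho 0.94 each). For Cxcl3 they were Agr2, a secretory epithelial gene of the gastric list, Serpinb5 and Ywhah (rho 0.88 each), and for Cxcl1 they were Gcnt2 (0.82), Nek6 (0.81) and Hs3st1 (0.79). For Cxcl2 they were Ywhah (0.90), Arf6 (0.90) and the prostaglandin E2 receptor gene Ptger4 (0.89). For Cxcr2 they included F2rl1, the gene of protease-activated receptor 2 (0.94), and the transcription factor gene Runx2 (0.94).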

How the data were processed

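Bulk RNA of 29 mice was measured by RNA-seq. Per the labels and the study's methods, the authors sequenced 150 bp paired-end reads, aligned them to mm10 with STAR and deposited raw counts per gene, without normalization. The submitters' processing notes name STAR 2.7.0f and featureCounts 1.6.4, whereas the methods name HTSeq. The strand setting and annotation of the counting are not given in the sources used here. The methods also name another RNA extraction than the labels do. Of 24421 genes, 20929 had a count, and 0 library pairs were identical.

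Groups came from the labels, and outcome from the mouse numbers of the study's text. Members and gene lists were chosen with earlier results of these data known. Counts were tested with edgeR 4.0.16 in R 4.3.3 by the two-sided quasi-likelihood test after TMM scaling and filterByExpr, with p-values adjusted by Benjamini-Hochberg over all genes tested and a threshold of 0.05,, with only the groups compared in a fit. The script was tested on simulated data. Levels are CPM on TMM-scaled library sizes. Relations use log2 CPM with a prior count of 2 and 100000 two-sided permutations (scipy 1.17.1). Positions came from GENCODE vM21, which matched 23334 of the symbols (95.5%), and promoter sequences from RefSeq. Per length means per kilobase of the longest principal coding transcript. A group with at most 3 counts in every library was at the floor, where a fold is a bound. Floors cover counting error only, and the 95% intervals of fold changes, from edgeR, include the spread between mice.

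Named genes were all 5 members, at most 4 genes of a fixed list with the smallest p, and the 3 genes most like each member in Spearman's rho; neighbours in the cluster were named by position, and S100a8, S100a9, Gkn1, Il17a and other marker genes beyond that rule were chosen after their values were seen. Some genes that the rule gives are not reported here. Alternatives were DESeq2 1.42.0, upper-quartile normalization, no filter, at least 10 counts in every library, a fit of all 29 libraries, skeletal muscle genes left out, the replicate number as a block and each mouse left out. Group levels were also computed on upper-quartile and total library sizes. Whether equal replicate numbers pair mice was checked by the correlation of deviations from the group means, and in 0 of the 6 comparisons was it over 0.1 in every pair, so no pairing was used. Each library was a separate mouse, so the SD holds counting error and differences between mice together.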

Additional observations from a re-analysis of the deposited data

Results flagged for a closer look

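Dixon's criterion was applied to the 5 members in the 5 groups of 4 or 5 mice (25 sets, of which chance flags about 1 in 20), and 6 values stood apart from the rest of their group. Untreated mouse 4 at 3wk stood above the other 4 for Cxcl5 (86.3 CPM against 27.5 to 44.4), Cxcl3 (6.18 against 0.735 to 2.25) and Cxcl2 (1.43 against 0.232 to 0.559). Dual ICI mouse 4 at 3wk stood above the others for Cxcl5 (134 CPM against 14.0 to 45.5) and Cxcl3 (7.14 against 0.894 to 2.51). Their gastric epithelium sums were 2778 and 3114 CPM and their neutrophil sums 132 and 144 CPM, the highest of their groups, and their skeletal muscle sums were 78565 and 68672 CPM, the lowest of theirs. Anti-PD1 mouse 5 stood below the others for Cxcl5 (0.780 CPM against 96.6 to 132), with a gastric epithelium sum of 79.8 CPM, a neutrophil sum of 32.9 CPM and a skeletal muscle sum of 354907 CPM. The part of tissue content in these 6 values was not tested.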

How the results depend on the processing

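With each mouse left out, the number of members called stayed at 5 in cured against untreated and in uncured against cured mice, ran from 0 to 3 between untreated mice of 3wk and 5wk (3 without mouse 4 of 3wk, 1 without mouse 2 of 5wk), and stayed at 0 in the 6 other comparisons. All 20 relations passed an adjusted p of 0.05 with a prior count of 0.5, upper-quartile normalization or anti-PD1 mouse 5 left out, but by Spearman's rho 18 passed within 3wk, 5 within 5wk and 0 within 5wk without that mouse. In the fit of all 29 libraries 3 members and 2693 genes were called for all dual ICI against untreated mice. That fit gave uncured and cured mice separate means. With the gastric epithelium score, added after the data had been seen, 3 members and 2980 genes were called for dual ICI at 3wk, where Cxcl1 (0.58) and Cxcr2 (0.47) reversed in sign, as did Cxcr2 between untreated mice (-0.018). DESeq2 called 507 genes for dual ICI at 3wk, 3141 between untreated mice, 18 in uncured mice, 55 for all dual ICI mice and 1 in the interaction. The replicate block, whose numbers do not pair the mice (own number best in 0 to 2 pairs of a comparison), called 209 genes for dual ICI at 3wk and 4016 in cured mice, changed no call of a member, and reversed Cxcl5 under dual ICI at 3wk (-0.26), Cxcl3 (-0.078) and Cxcr2 (-0.12) under anti-PD1, Cxcl1 (-0.087) under anti-CTLA4 and Cxcl2 (-0.060) in the interaction. No paired analysis was possible for uncured against cured mice because they share no number. With each mouse left out, genes called ran from 6 to 119 for dual ICI at 3wk, 654 to 4915 between untreated mice, 4491 to 9388 in cured against untreated and 9668 to 10883 in uncured against cured mice. The count moved by over 1.5 times without any untreated mouse of 3wk (lowest, 6, without mouse 5) or dual ICI mice 3 and 5 for dual ICI at 3wk. It did so without mice 2 (4915), 4 and 5 of 5wk or 1, 2, 3 and 5 of 3wk between untreated mice, and without cured mouse 3 (4491) or 4 in cured against untreated mice. In the same fits the log2 fold changes that crossed 0 ran, for dual ICI at 3wk, from -0.67 to 0.46 (Cxcl5), -0.68 to 0.76 (Cxcl3), -0.58 to 0.52 (Cxcl1) and -0.59 to 0.27 (Cxcr2). They ran from -0.23 to 0.29 (Cxcl5), -0.24 to 0.25 (Cxcl2) and -0.12 to 0.37 (Cxcr2) under anti-PD1, from -0.052 to 0.39 (Cxcl5) and -0.14 to 0.32 (Cxcl1) under anti-CTLA4, and from -0.10 to 0.24 (Cxcl1) in uncured mice. They ran from -0.87 to 0.028 (Cxcl2) for all dual ICI mice, and from -0.11 to 1.01 (Cxcl5), -0.43 to 0.68 (Cxcl1) and -0.35 to 0.38 (Cxcl2) in the interaction. On total library size 3 group levels moved by more than their SD, all in uncured mice. Means there were 140 (Cxcl5), 2.18 (Cxcl1) and 2.78 CPM (Cxcl2), against 115, 1.80 and 2.29 CPM on TMM-scaled sizes. The cause of these changes was not tested. A minimum of 10 counts in every library removed all 5 members from the comparisons with cured mice and 2 from each of 4 others. Low counts in the cured mice and 2 uncured mice limit what these comparisons can resolve.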
